A study of Mus musculus with 12 samples.

Results

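Proteasome genes were described across mouse heart libraries as every row of the deposited count matrix whose Ensembl identifier has a protein-coding mouse symbol beginning with Psma, Psmb, Psmc, Psmd, Psme, Psmf or Psmg and a number, pseudogene symbols left out. The rule found 50 genes among the 27504 in the matrix. They are Psma1 to Psma8, Psmb1 to Psmb11, Psmc1 to Psmc6, Psmc3ip, Psmd1 to Psmd14, Psme1 to Psme4, Psme2b, Psmf1 and Psmg1 to Psmg4. RNA came from hearts of wild-type C57BL/6 mice at postnatal day 45, in 12 libraries numbered 1 to 12. Mice of the AngII arm had a cardiac hypertrophy model made with angiotensin II, the hormone of the renin system that raises blood pressure and makes heart muscle grow. Sham mice were operated as controls. Within both arms they were given vehicle, gastrodin at 5 mg/kg/day or gastrodin at 50 mg/kg/day into the stomach for 7 days. Gastrodin is a phenolic glucoside from the orchid Gastrodia elata. That makes 6 groups of 2 libraries each. AngII vehicle holds libraries 1 and 2, AngII with 5 mg libraries 3 and 4, and AngII with 50 mg libraries 5 and 6. Sham vehicle holds libraries 7 and 8, sham with 5 mg libraries 9 and 10, and sham with 50 mg libraries 11 and 12. The route and duration of angiotensin II are not stated in the labels. Whether every library is a separate animal is not stated either, and p-values therefore reflect only the spread among these samples.

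The proteasome is the protease that degrades proteins marked with ubiquitin. Its core particle is a barrel of stacked rings: outer rings of alpha subunits (Psma genes), which gate the entrance, and inner rings of beta subunits (Psmb genes), of which Psmb5, Psmb6 and Psmb7 encode the standard cutting sites. Cells exposed to interferon replace these with the immune forms Psmb8, Psmb9 and Psmb10. A regulatory particle of ATPases (Psmc genes) and non-ATPase subunits (Psmd genes) caps the barrel, holds ubiquitin chains, removes them and unfolds the substrate. Activators of the Psme genes can take the place of the regulatory particle, and dedicated chaperones assemble the complex. In heart muscle the proteasome turns over contractile and mitochondrial proteins, and its activity has been studied in hypertrophy and in overload.

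The libraries held 63.5 to 78.6 M counts, of which 63.1 to 74.5% were mitochondrial transcripts and a further 15.9 to 19.5% nuclear copies of mitochondrial sequence. The counts outside these and ribosomal RNA were 7.49 to 20.3% of the AngII libraries and 6.34 to 10.4% of the sham libraries. The proteasome genes summed to 23420 to 59863 counts per library. Levels are given as CPM, counts scaled to library size by the trimmed mean of M-values. The authors' TPM carry no such scaling, and the median gene had a log2 fold change (AngII over sham) of 0.10 on the scaled counts, 0.22 on log2(TPM + 1) and 0.51 on log2(TPM + 0.1). Library 4 (AngII, 5 mg) lay with the sham libraries on several of the measures below, and the calls that change without it are given with the first result below.

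On the scaled counts, though not on the authors' unscaled TPM, most proteasome genes lay lower in AngII hearts than in sham hearts, with exceptions at named subunits. Averaged over the doses, 8 of the 48 members tested fell and 1 rose (edgeR quasi-likelihood F-test, Benjamini-Hochberg adjusted p under 0.05 over 16723 genes). That is 16.67% of the members falling, where 7.53% of all genes fell, and 2.083% rising, where 13.4% of all genes rose. The genes that fell were Psma5, Psma6, Psma1, Psma2, Psmb1, Psmd8, Psmd11 and Psme3, and the gene that rose was Psme4. The median log2 fold change was -0.33 over the members and 0.10 over all genes, a distance of -0.42. That distance was -0.28 on log2(TPM + 0.1) and -0.05 on log2(TPM + 1), where the members' own medians were 0.24 and 0.17 and so above 0. Of the 48 members, 39 lay below 0 (81.25%), against 46.0% of all genes. Log2 fold changes ran from -0.86 at Psma5 to 0.71 at Psme4, and 24 members (50%) had an unadjusted p under 0.05, against 36.7% of all genes.

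**Figure D1:**
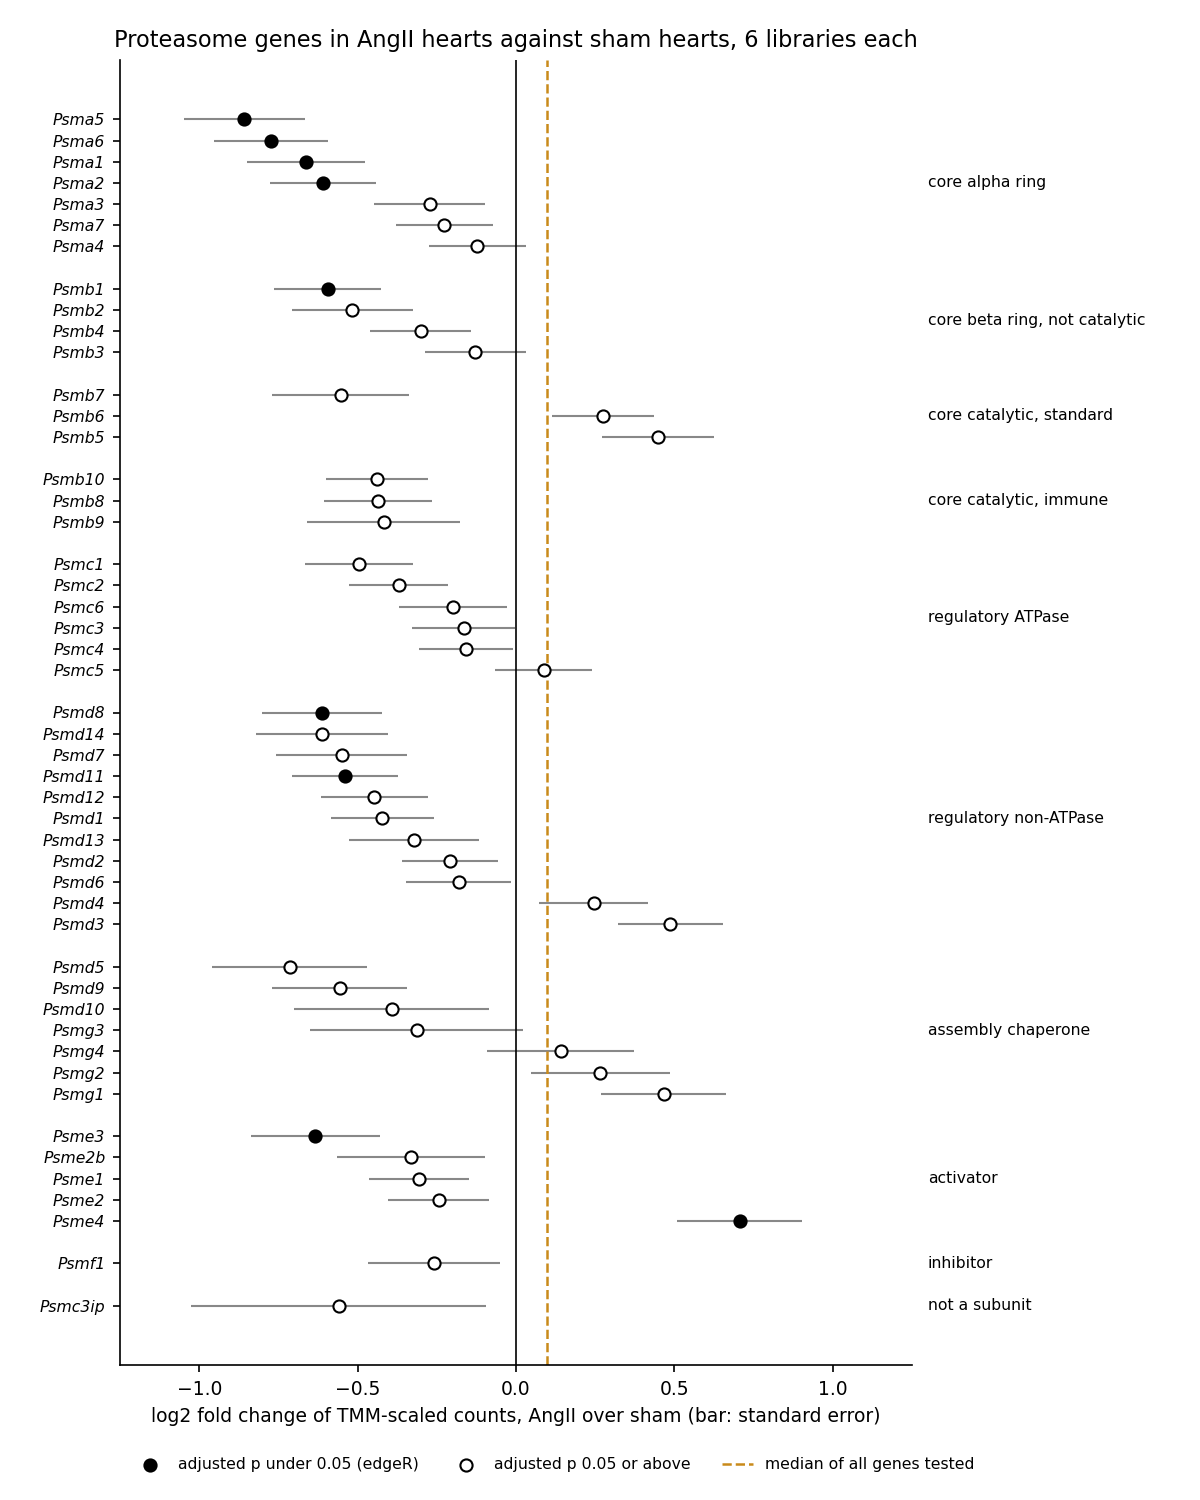
Log2 fold change of scaled counts, AngII over sham (horizontal axis), for the 48 tested proteasome genes by role, with standard errors and the median of all genes as a dashed line. Filled points passed an edgeR adjusted p of 0.05; 39 of 48 points lie left of 0, but on the authors' unscaled TPM + 1 only 8 do.

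The number of calls moved with the libraries in the fit. The members' median log2 fold change was -0.25 without library 3 (all genes 0.07) and -0.49 without library 4 (all genes 0.13). Without library 5, 7, 8, 10 or 11 the members' share of falls lay close to that of all genes. Among the 12 fits that left out 1 library, calls were fewer except without library 2 (as many) and library 4 (more). The falls called over all genes moved with them, between 2.18% without library 1 and 12.4% without library 4, where the members' share of falls was 4.08% and 40.8%. The members called without library 4 but not with it were Psmb2, Psmb5, Psmb7, Psmb8, Psmb10, Psmc1, Psmc2, Psmd1, Psmd3, Psmd5, Psmd7, Psmd9, Psmd12 and Psmd14. Psma5 and Psma6 were called in all 12 of these fits, Psme4 in 6, Psma2 in 5, Psmb1 in 4, Psma1 and Psme3 in 3, Psmd8 in 2 and Psmd11 in 1. DESeq2's Wald test called 21 members, 2 higher and 19 lower, among them all 9, where it called 16.8% of all genes higher and 10.8% lower. With the pseudogenes in the matrix that share sequence with a member, and Psme2b with Psme2, added to it, the same 9 were called. No member was called when the share of counts outside mitochondrial and ribosomal RNA was a covariate, and the members' median was then -0.21 with 38 of 48 below 0. Few genes of any kind were called in that fit, 2.38% higher and 0.443% lower. Its all-gene median was 0.03, so the members' distance from it was -0.24, against -0.42 without the covariate. The part of this share of counts in the result was not tested.

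As a share of the counts outside mitochondrial and ribosomal RNA, which does not depend on the scaling, the proteasome genes together took 0.387 to 0.496% in the 6 AngII libraries and 0.4998 to 0.525% in the 6 sham libraries. The arms did not overlap, although library 4 was close to the sham range and the other 5 AngII libraries lay at 0.455% or below. The same share of the authors' TPM was 0.476 to 0.592% in AngII libraries and 0.591 to 0.637% in sham libraries, and here library 4 overlapped library 11. In total TPM, without taking the share, the members summed to 311.4 to 705.7 in AngII libraries and 274.9 to 442.0 in sham libraries.

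**Figure D2:**
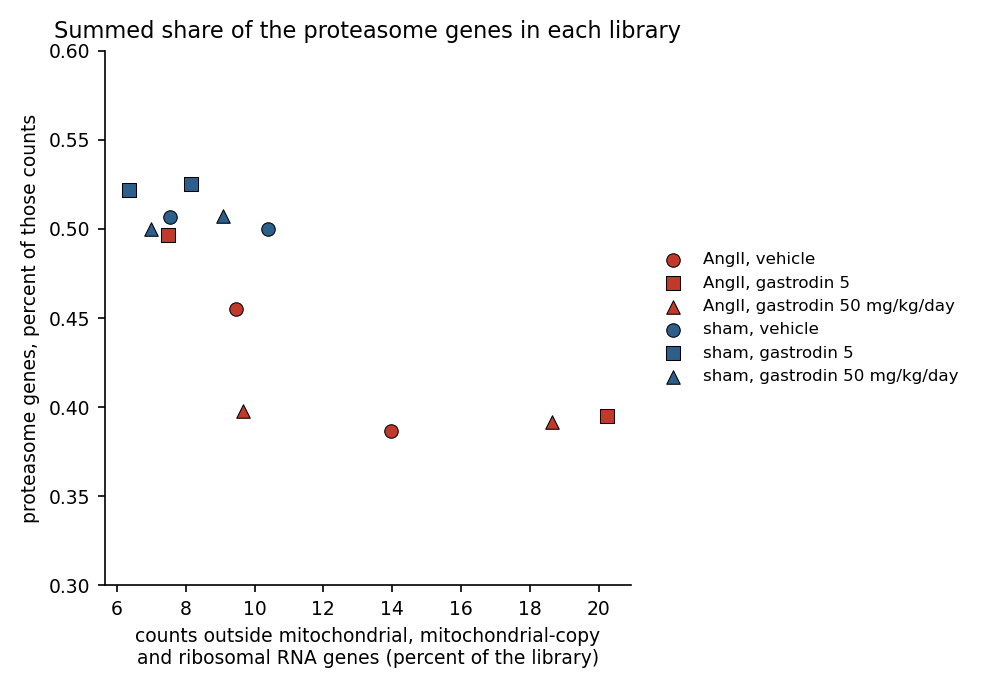
Summed proteasome gene counts as a percent of the counts outside mitochondrial, mitochondrial-copy and ribosomal RNA genes (vertical axis), against the percent of the library that those counts make up (horizontal axis); each point is 1 library. The 6 AngII points lie at 0.387 to 0.496%, below the 6 sham points at 0.4998 to 0.525%, and the AngII libraries with 13.96% or more on the horizontal axis lie at 0.387 to 0.395%.

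The alpha ring held 4 of the 8 falls. On the scaled counts all 7 of its tested genes lay below 0, with a median log2 fold change of -0.61. Psma5 (chr3:108256926-108279974 of GRCm38, plus strand) encodes the alpha5 subunit and changed most among the members. It lay at 3.06, 3.97 and 6.01 CPM in AngII hearts (lowest, median and highest of 6) and at 6.51, 7.51 and 8.49 CPM in sham hearts. All AngII libraries lay below all sham libraries, and the closest AngII value was that of library 4. The means were 4.13 ± 1.07 CPM in AngII hearts and 7.45 ± 0.64 CPM in sham hearts (SD, n = 6 each), a log2 fold change of -0.86 ± 0.19 (SE; edgeR adjusted p = 0.00935). Processed pseudogenes share 58.4% of the 31-base words of Psma5. Those in the matrix, Gm12989 and Gm8394, held 294 and 248 counts against 4918 for Psma5 itself, and the call stood when they were added to it. The gene 1700010K24Rik overlaps 4.54% of its exon bases on the opposite strand. With the share of counts as covariate the value was -0.58 (adjusted p = 0.0939).

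Psma6 (chr12:55384222-55418454, plus strand) encodes the alpha1 subunit. Its levels were 7.43, 8.60 and 12.4 CPM in AngII hearts and 12.4, 15.2 and 20.9 CPM in sham hearts (lowest, median and highest), again with no overlap, although the highest AngII value of 12.42 CPM (library 4) and the lowest sham value of 12.44 CPM (library 10) nearly met. The log2 fold change was -0.77 ± 0.18 (adjusted p = 0.0114). Psma2, which encodes alpha2, had 6.34, 8.33 and 9.92 CPM in AngII hearts and 11.01, 12.9 and 14.3 CPM in sham hearts, with a log2 fold change of -0.61 ± 0.17 (adjusted p = 0.0232). Here too every AngII library lay below every sham library, and library 4 was not the nearest to sham. Psma1, which encodes alpha6, had 6.24, 7.00 and 11.4 CPM in AngII hearts and 8.91, 12.4 and 13.9 CPM in sham hearts. These overlapped through library 4 (AngII, 11.4 CPM) and library 12 (sham, 8.91 CPM), and the log2 fold change was -0.66 ± 0.19 (adjusted p = 0.0262). The remaining ring genes, Psma3, Psma4 and Psma7, had values from -0.27 to -0.12 and did not pass.

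Among the beta ring genes that encode no cutting site, all 4 lay below 0 and 1 passed. Psmb1, which encodes beta6, had 8.94, 10.3 and 13.4 CPM in AngII hearts and 14.2, 15.6 and 18.8 CPM in sham hearts. The arms did not overlap, and the log2 fold change was -0.59 ± 0.17 (adjusted p = 0.0268). Psmb2, Psmb3 and Psmb4 had log2 fold changes from -0.52 to -0.13. On the authors' log2(TPM + 1) scale Psma2 and Psmb1 stood at 0.002 and Psmd11 at 0.04, and Psma5 and Psma6 at -0.23 and -0.17, none of them passing.

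**Figure D3:**
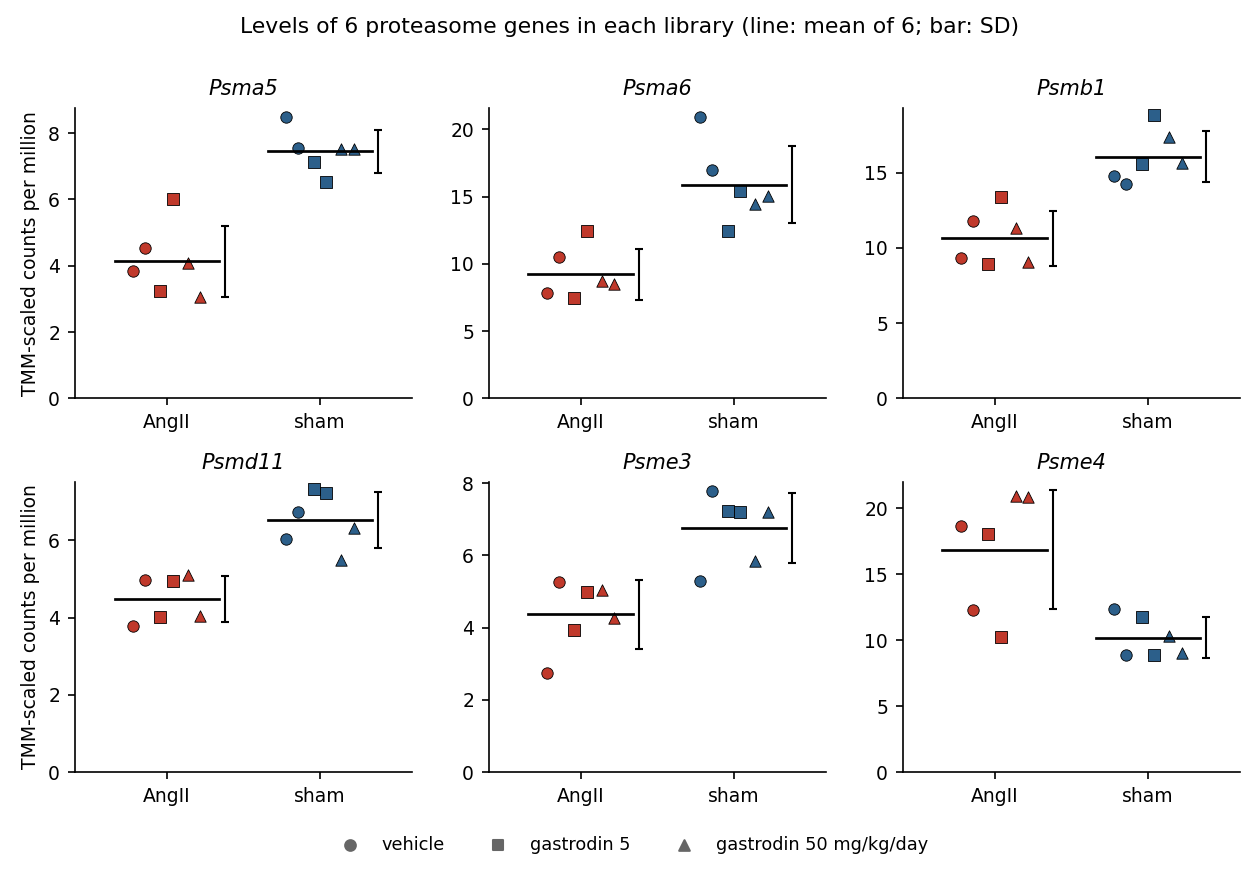
Scaled CPM (vertical axis) of 6 members in each library, AngII left and sham right, by gastrodin dose; lines are means of 6 libraries and bars SD. Psma5, Psma6, Psmb1, Psmd11 and Psme3 have their 6 AngII points below their 6 sham points, while Psme4 lies at 10.2 to 21.0 CPM in AngII and 8.87 to 12.3 CPM in sham; on unscaled TPM + 1 the differences of Psmb1 and Psmd11 turn to 0.002 and 0.04.

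In all, 7 members had every AngII library below every sham library, which is 14.58% of the members, against 2.92% of all genes. They were Psma2, Psma5, Psma6, Psmb1, Psmd11, Psmd5 and Psme3. No member had every AngII library above every sham library, which 4.44% of all genes had.

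The cutting subunits moved unevenly, and none passed the threshold. Psmb5, which encodes the chymotrypsin-like site that the drug bortezomib blocks, lay at 7.45, 8.91 and 11.7 CPM in AngII hearts and at 6.36, 6.65 and 8.27 CPM in sham hearts. Of the AngII libraries, 3 lay above all sham libraries, and the log2 fold change was 0.45 (adjusted p = 0.0877). Psmb6, the caspase-like site, had 17.8, 21.3 and 27.4 CPM in AngII hearts and 15.7, 18.2 and 20.4 CPM in sham hearts, a log2 fold change of 0.28 (adjusted p = 0.232). Psmb7, the trypsin-like site, had 9.27, 13.1 and 19.8 CPM in AngII hearts and 17.6, 19.3 and 24.9 CPM in sham hearts. Of its AngII libraries 5 lay below all sham libraries and library 4 lay among them, with a log2 fold change of -0.55 (adjusted p = 0.0834). Each of the 12 fits without 1 library leaves 1 library in a group. Over them Psmb5 ran from 0.35 to 0.55 and Psmb7 from -0.73 to -0.40, with 0.55 and -0.73 reached without library 4.

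The immune forms all lay below 0, at -0.44 for Psmb8 (adjusted p = 0.0826), -0.42 for Psmb9 (adjusted p = 0.225) and -0.44 for Psmb10 (adjusted p = 0.0677). Psmb8, the counterpart of Psmb5, had 4.77, 6.80 and 8.78 CPM in AngII hearts and 7.996, 9.26 and 10.2 CPM in sham hearts, and 5 AngII libraries lay below all sham libraries. Psmb9, the counterpart of Psmb6, had 1.59, 3.14 and 5.45 CPM in AngII hearts and 2.88, 4.08 and 5.49 CPM in sham hearts, which overlapped widely. Psmb10, the counterpart of Psmb7, had 7.97, 9.30 and 12.3 CPM in AngII hearts and 11.7, 13.9 and 14.2 CPM in sham hearts, with 4 AngII libraries below all sham libraries. Over the fits without 1 library, Psmb8 ran from -0.52 to -0.34 and Psmb10 from -0.51 to -0.36. Without library 4 they stood at -0.51 and -0.49. On log2(TPM + 1) the values of Psmb8, Psmb9 and Psmb10 turned to 0.15, 0.13 and 0.15. Psmb9 shares 5.79% of its exon bases with Tap1 on the opposite strand and Psmb8 overlaps Gm20496, and whether counting used the strand is not stated.

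**Figure D4:**
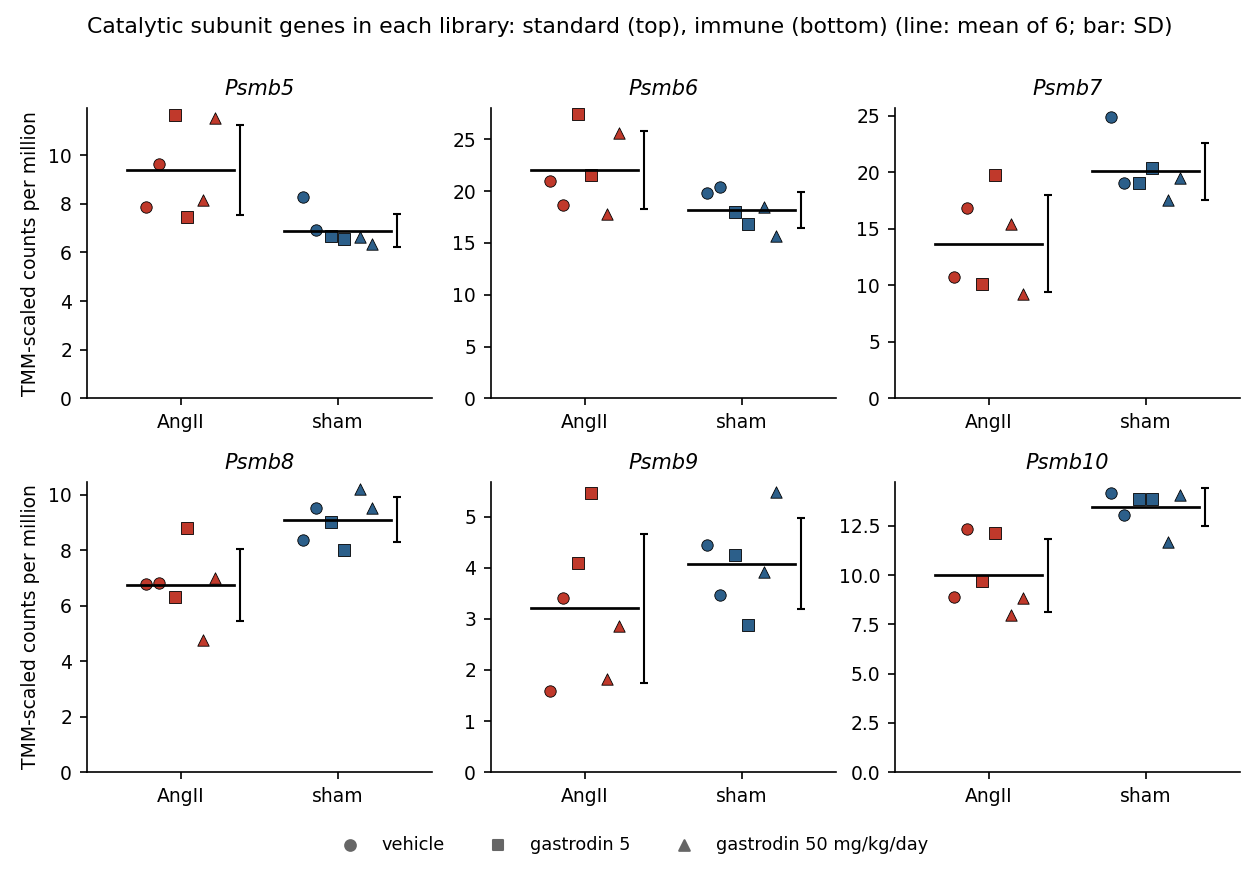
Scaled CPM (vertical axis) of the standard cutting subunit genes (top) and their immune counterparts (bottom) in each library, AngII left and sham right; lines are means of 6 libraries and bars SD. The means of Psmb5 and Psmb6 are higher in AngII (log2 fold changes 0.45 and 0.28) and those of Psmb7, Psmb8, Psmb9 and Psmb10 lower (-0.55 to -0.42), which turn to 0.003 to 0.15 on unscaled TPM + 1; no difference passed.

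A ratio of counts within a library needs no scaling. The count of Psmb8 over that of Psmb5 was 0.542, 0.658 and 1.18 in AngII hearts and 1.009, 1.36 and 1.54 in sham hearts (lowest, median and highest of 6). The ratio lay below the lowest sham value in 5 AngII libraries, and library 4 was the exception. The processed pseudogenes Gm3375 and Psmb5-ps share 65.7% of the words of Psmb5, and Gm3375 held 6331 counts against 8201 for Psmb5, so reads may be split between them. With Gm3375 added to Psmb5 the ratio was 0.349 to 0.569 in AngII hearts and 0.453 to 0.826 in sham hearts, with 4 AngII libraries below all sham libraries. The ratio of Psmb9 to Psmb6 was 0.0757 to 0.253 in AngII hearts and 0.171 to 0.3496 in sham hearts, and that of Psmb10 to Psmb7 was 0.516 to 0.960 in AngII hearts and 0.570 to 0.728 in sham hearts. The Psmb8 and Psmb9 ratios lay below all sham libraries in 5 and 4 AngII libraries, and the Psmb10 ratio in 1. These ratios are a description and were not tested.

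In the regulatory particle, none of the 6 ATPase genes passed. Their log2 fold changes ran from -0.50 at Psmc1 to 0.09 at Psmc5, with a median of -0.18. Psmc1, which encodes Rpt2, had 11.3, 14.2 and 18.9 CPM in AngII hearts and 16.9, 20.3 and 24.9 CPM in sham hearts, and did not pass (adjusted p = 0.0543). Over the fits without 1 library its log2 fold change ran from -0.63 (without library 4) to -0.37. Of the 11 non-ATPase genes 2 fell, none rose, and 9 lay below 0, with a median of -0.42. Psmd8, which encodes the lid subunit Rpn12, had 5.73, 6.72 and 10.7 CPM in AngII hearts and 10.1, 10.7 and 13.2 CPM in sham hearts, a log2 fold change of -0.61 ± 0.19 (adjusted p = 0.0372), with library 4 alone among the sham values. Psmd11, which encodes the lid subunit Rpn6, had 3.79, 4.49 and 5.11 CPM in AngII hearts and 5.48, 6.53 and 7.34 CPM in sham hearts, with no overlap, and its log2 fold change was -0.54 ± 0.17 (adjusted p = 0.0381).

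Psmd14 encodes Rpn11, the enzyme that cuts ubiquitin chains off a substrate. It had 2.21, 3.12 and 4.95 CPM in AngII hearts and 4.79, 5.04 and 5.61 CPM in sham hearts, and at -0.61 it missed the threshold (adjusted p = 0.0529). Over the fits without 1 library it ran from -0.83 (without library 4, its highest AngII library) to -0.43. Psmd3, which encodes the lid subunit Rpn3, lay the other way, at 11.7, 15.0 and 18.3 CPM in AngII hearts and 8.82, 10.6 and 12.7 CPM in sham hearts, where 5 AngII libraries lay above all sham libraries. Its log2 fold change of 0.49 also missed the threshold (adjusted p = 0.0529). Over the fits without 1 library it ran from 0.40 to 0.58, with 0.58 reached without library 4.

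The activators split. Psme4 (chr11:30771726-30880361, plus strand) encodes a large single-chain activator of the nucleus, known for its part in sperm development and in the loss of acetylated histones, and it was the member that rose. It lay at 10.2, 18.4 and 21.0 CPM in AngII hearts and at 8.87, 9.65 and 12.3 CPM in sham hearts, with a log2 fold change of 0.71 ± 0.20 (adjusted p = 0.0252). Of the AngII libraries 4 lay above every sham library, while library 2 (12.3 CPM) and library 4 (10.2 CPM) lay within the sham range. Psme3 encodes the other nuclear activator, a ring of identical subunits, and fell. It had 2.74, 4.62 and 5.25 CPM in AngII hearts and 5.28, 7.20 and 7.79 CPM in sham hearts, with no overlap and a log2 fold change of -0.63 ± 0.20 (adjusted p = 0.0427). The highest AngII value (library 2) and the lowest sham value (library 7) were 5.25 and 5.28 CPM.

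The count of Psme4 over that of Psme3 was 2.05, 4.38 and 6.82 in AngII hearts and 1.14, 1.44 and 2.34 in sham hearts, with library 4 as the lowest AngII library and library 7 as the highest sham library. Psme1 and Psme2 encode the interferon-induced activator ring. Neither passed, at -0.31 and -0.24. Psme1 had 11.1, 13.4 and 16.6 CPM in AngII hearts and 13.7, 16.0 and 19.4 CPM in sham hearts, and Psme2 had 6.30, 6.91 and 8.10 CPM in AngII hearts and 6.98, 8.69 and 9.48 CPM in sham hearts. The intronless copy Psme2b shares 77.1% of its words with Psme2 and other genes, so its log2 fold change of -0.33 is uncertain. Psmf1, which encodes a proteasome inhibitor, did not pass either (adjusted p = 0.389).

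None of the 7 assembly chaperone genes passed. Their log2 fold changes ran from -0.71 to 0.47 with a median of -0.31. Psmd5, a chaperone of the ATPase ring, had 0.985, 1.76 and 2.196 CPM in AngII hearts and 2.35, 2.70 and 3.24 CPM in sham hearts. Its arms did not overlap, but it missed the threshold at -0.71 (adjusted p = 0.0548). Over the fits without 1 library it ran from -0.91 to -0.56, and it stood at -0.78 without library 4. The chaperones of the alpha ring, Psmg1 to Psmg4, lay on both sides of 0, with 3 of 4 above. Psmc3ip, which the symbol rule includes, is not a subunit but a partner of the ATPase Psmc3 with a role in meiotic recombination. It was the lowest tested member, at 0.199 to 0.582 CPM in AngII hearts and 0.290 to 0.762 CPM in sham hearts, and its log2 fold change was -0.56 ± 0.47.

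The other 2 members are tissue-restricted and were too low to be tested. Psma8 replaces Psma7 in the testis. It held 2 counts in AngII libraries, both in library 2, and 40 counts in sham libraries, of which 20 were in library 11. Psmb11 is the catalytic subunit of thymic epithelium, and 0 of 879.6 M counts fell on it, which allows a level of up to 0.00341 CPM (3 counts; counting error only).

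Per kilobase of the longest coding transcript, the median level over the 12 libraries was highest for Psmb6 (19.9 CPM per kb), Psmb4 (17.5) and Psmc3 (13.7), and lowest among the tested members for Psmc3ip (0.354), Psmg3 (0.385) and Psmd5 (0.517). Of the immune forms, Psmb10 stood at 9.34 CPM per kb, above its counterpart Psmb7 at 6.42. Psmb8 stood at 4.29 CPM per kb against 8.53 for Psmb5, and Psmb9 at 1.28 against 19.9 for Psmb6. Among activators Psme2 (8.06) and Psme1 (7.41) lay above Psme3 (1.98) and Psme4 (1.86). In the authors' TPM the order differed, with Psmc1 (28.7 TPM), Psmb10 (27.3 TPM) and Psmb6 (23.7 TPM) on top. There Psmb8 (8.57 TPM) lay above Psmb5 (7.28 TPM), and Psme1 (14.9 TPM) above Psme2 (7.41 TPM). The gene lengths implied by those TPM are shorter than the transcript for several members, at 0.348 of its length for Psmc1, 0.326 for Psmb10 and 0.198 for Psmd1. Levels of different members are therefore comparable only as far as the chosen length is right.

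The arms were then compared at each dose, with 2 libraries against 2. No member passed at any dose. In vehicle the members' median log2 fold change was -0.40 with 39 of 48 below 0, and 0.0598% of all genes were called. With 5 mg it was -0.35 with 38 below 0, and 0% of all genes were called. That 5 mg median was -0.03 without library 3 and -0.58 without library 4. With 50 mg it was -0.39 with 35 below 0, where 5.42% of all genes were called. On log2(TPM + 1) these medians were 0.07, 0.36 and 0.12, beside 0.16, 0.32 and 0.19 for all genes. The unadjusted p was under 0.05 for 5 members in vehicle (10.4%), 2 with 5 mg (4.17%) and 11 with 50 mg (22.9%), all below the shares over all genes of 16.5%, 12% and 24%. DESeq2 called 1 member in vehicle, 0 with 5 mg and 2 with 50 mg, where it called 4.29%, 1.66% and 13.6% of all genes. On the scaled counts the members' median in vehicle was -0.27 without library 1 and -0.48 without library 2. It was -0.37 without library 7 and -0.42 without library 8. The 50 mg median was -0.49 without library 5, -0.28 without library 6, -0.34 without library 11 and -0.40 without library 12. The smallest p-values in vehicle belonged to Psma6 (-1.05, adjusted p = 0.170), Psma5 (-0.94, adjusted p = 0.214) and Psmc1 (-0.75, adjusted p = 0.247). With 5 mg they belonged to Psmd11 (-0.70, adjusted p = 0.372), Psmd3 (0.62, adjusted p = 0.417) and Psmb1 (-0.63, adjusted p = 0.420). With 50 mg they belonged to Psma5 (-1.07, adjusted p = 0.0755), Psme4 (1.11, adjusted p = 0.0756) and Psmb8 (-0.74, adjusted p = 0.149).

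**Figure D5:**
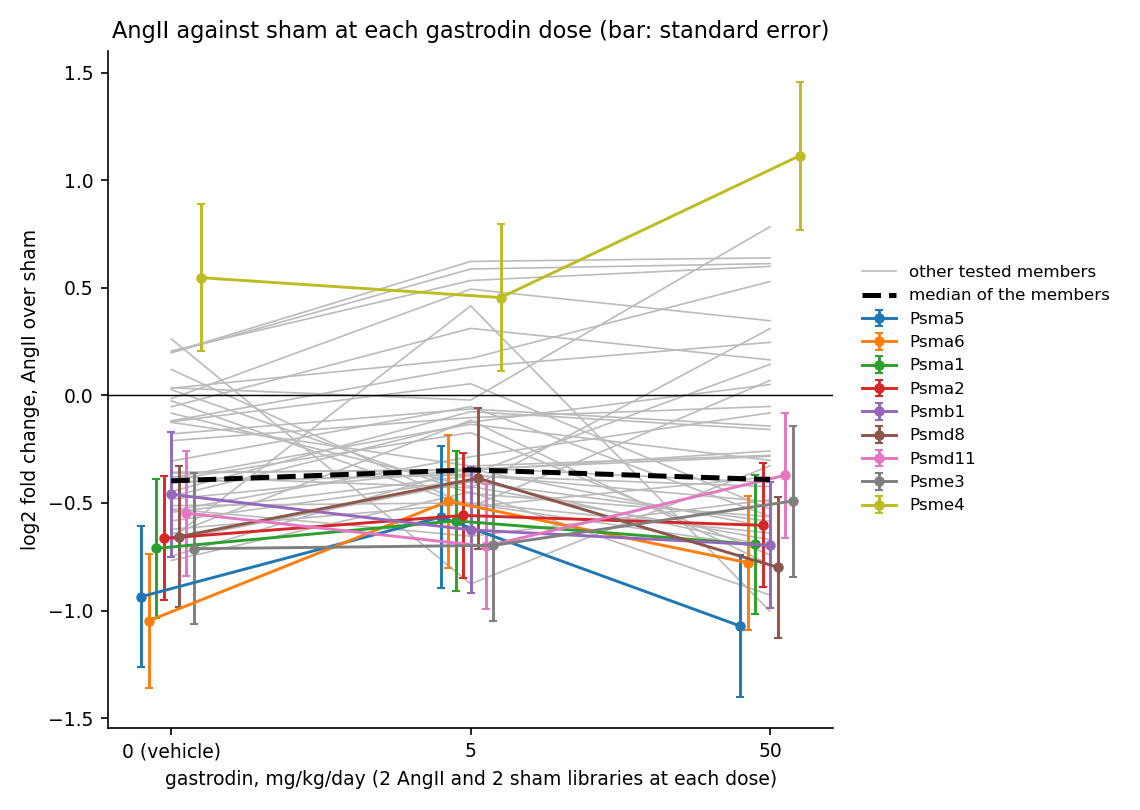
Log2 fold change of scaled counts, AngII over sham (vertical axis), at 0, 5 and 50 mg/kg/day of gastrodin (horizontal axis) for the 48 tested members, with the 9 genes called over the doses in colour (bars: standard errors) and the members' median dashed. The medians are -0.40, -0.35 and -0.39 (the second is -0.03 without library 3 and -0.58 without library 4), and Psme4 lies above 0 at each dose; on unscaled TPM + 1 the medians are 0.07, 0.36 and 0.12, and no member passed at a single dose.

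All 8 genes that fell over the doses lay below 0 at each dose, and Psme4 lay at 0.55 in vehicle, 0.45 with 5 mg and 1.11 with 50 mg. These values share the fit that made the call, so they are no separate evidence for it. Psmb9 was the most uneven cutting subunit gene, at -0.66 in vehicle, 0.42 with 5 mg and -1.004 with 50 mg.

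Gastrodin against vehicle was tested within each arm, and no member passed in any of the 4 comparisons. In AngII hearts the median log2 fold change over the members was 0.07 for 5 mg and -0.02 for 50 mg, where 0.00598% and 0.012% of all genes were called. In sham hearts it was -0.04 for 5 mg and -0.12 for 50 mg, where 0.0179% and 0.149% of all genes were called. The medians moved with single libraries. In AngII hearts that of 5 mg turned to -0.12 without library 4 and to -0.05 without library 1 and was 0.23 without library 3, and that of 50 mg was -0.21 without library 1 and 0.105 without library 2. In sham hearts they were -0.11 and -0.17 without library 8 and -0.01 and -0.06 without library 7. The unadjusted p was under 0.05 for 1 member, Psmb9 with 5 mg in AngII hearts (0.93 ± 0.42, edgeR adjusted p = 1.0), and for 0 members in the others. Over all genes it was under 0.05 for 1.74% (5 mg) and 1.88% (50 mg) in AngII hearts and for 4.12% (5 mg) and 9.22% (50 mg) in sham hearts. Psmb9 had 4.09 and 5.45 CPM in AngII hearts with 5 mg, against 1.59 and 3.42 CPM in AngII hearts with vehicle. The next smallest p-values there belonged to Psmc2 (0.44) and Psma7 (0.36). In AngII hearts with 50 mg they belonged to the chaperone gene Psmd10 (-0.91), Psme4 (0.43) and Psmb10 (-0.34), all with an adjusted p of 1.0. In sham hearts they belonged to the ATPase gene Psmc4 (0.48), Psmg3 (0.97) and Psma6 (-0.44) with 5 mg, and to the chaperone gene Psmg2 (-0.76), the ATPase gene Psmc3 (-0.49) and the lid gene Psmd6 (-0.39) with 50 mg. DESeq2's Wald test called 0 members in all 4, and of all genes 0.0718% and 0.0897% in AngII hearts and 0.191% and 1.68% in sham hearts.

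The difference of the gastrodin effect between arms was tested as an interaction. No member passed at 5 mg, where 0.00598% of all genes were called, or at 50 mg, where 0.0299% were called, and no member had an unadjusted p under 0.05, against 3.07% and 6.93% of all genes. DESeq2 called 0 members in either, and 0.0837% and 0.682% of all genes. The smallest p-values were those of Psmb9 (1.08), Psmg3 (-1.14) and Psmc4 (-0.49) at 5 mg, and of Psmc3 (0.69), Psmd2 (0.55) and Psmg2 (0.75) at 50 mg. With 2 libraries a group, these standard errors are wide: for Psmb9 at 5 mg the interaction was 1.08 ± 0.59 on the log2 scale.

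Transcription of proteasome genes is known to be raised by Nfe2l1, which binds antioxidant response elements when the proteasome is inhibited, and many of their promoters also hold CCAAT boxes, the site of NF-Y. RefSeq windows of 300 bases (250 before to 50 after the start, GRCm38.p6) were found for 42 of the 50 members and not matched for Psma8, Psmb1, Psmb2, Psmb7, Psmc3, Psmd3, Psmd7 and Psmg2. They were searched on both strands for TGACNNNGC, the core of the element, and for CCAAT. No member held both. The core was present for 6 of the 42 members (14.3%), against 14.0% of all 27025 genes with a window. CCAAT was present for 15 (35.7%), against 41.1% of all genes. The 6 with the core were Psmb5, Psmb6, Psmc6, Psmd9, Psmd12 and Psme4. Their median log2 fold change (AngII over sham) was 0.04, and that of the 35 tested members without it was -0.33. Of the 7 members with a window whose fold change lay above 0, 3 held the core, and of the 34 below 0, 3 did. Those below 0 with the core were Psmc6 (-0.20), Psmd9 (-0.56) and Psmd12 (-0.45). Such matches are a description of letters, and whether a factor binds there was not tested.

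Windows are shown for the member that rose, for both standard cutting subunit genes above 0, and for alpha ring genes that fell, 5′ to 3′ on the gene's strand from RefSeq (GRCm38.p6), with matches to either motif in capitals.
Psme4 promoter, chr11:30771525-30771824, plus strand: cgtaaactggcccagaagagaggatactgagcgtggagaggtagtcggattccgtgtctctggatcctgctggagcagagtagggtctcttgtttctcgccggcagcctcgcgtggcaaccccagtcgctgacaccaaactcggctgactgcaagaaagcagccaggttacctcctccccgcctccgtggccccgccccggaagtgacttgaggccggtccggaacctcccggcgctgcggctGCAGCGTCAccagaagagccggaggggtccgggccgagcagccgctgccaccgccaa
Psmb5 promoter, chr14:54617946-54618245, minus strand: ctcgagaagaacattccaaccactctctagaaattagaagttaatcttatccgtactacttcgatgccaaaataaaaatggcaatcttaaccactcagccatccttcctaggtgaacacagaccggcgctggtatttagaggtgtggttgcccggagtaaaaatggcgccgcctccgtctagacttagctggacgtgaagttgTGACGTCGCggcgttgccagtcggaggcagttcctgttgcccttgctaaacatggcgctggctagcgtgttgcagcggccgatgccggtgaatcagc
Psmb6 promoter, chr11:70525107-70525406, plus strand: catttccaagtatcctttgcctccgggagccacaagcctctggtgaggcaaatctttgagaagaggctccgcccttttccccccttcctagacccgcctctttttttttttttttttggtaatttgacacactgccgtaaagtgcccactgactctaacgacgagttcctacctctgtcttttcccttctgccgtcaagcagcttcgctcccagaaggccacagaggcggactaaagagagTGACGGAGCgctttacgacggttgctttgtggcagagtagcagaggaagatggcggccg
Psma5 promoter, chr3:108256676-108256975, plus strand: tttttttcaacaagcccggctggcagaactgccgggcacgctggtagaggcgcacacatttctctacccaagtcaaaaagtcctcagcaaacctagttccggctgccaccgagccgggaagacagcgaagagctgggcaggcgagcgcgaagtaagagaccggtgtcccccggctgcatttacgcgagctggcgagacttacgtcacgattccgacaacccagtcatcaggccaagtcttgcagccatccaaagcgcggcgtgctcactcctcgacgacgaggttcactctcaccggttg
Psma1 promoter, chr7:114276067-114276366, minus strand: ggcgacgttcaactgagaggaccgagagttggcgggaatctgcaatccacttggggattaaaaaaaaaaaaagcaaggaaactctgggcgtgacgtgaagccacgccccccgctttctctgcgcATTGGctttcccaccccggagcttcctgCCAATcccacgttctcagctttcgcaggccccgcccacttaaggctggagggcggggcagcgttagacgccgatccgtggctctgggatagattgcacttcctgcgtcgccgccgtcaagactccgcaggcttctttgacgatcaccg
Psme4, Psmb5 and Psmb6 each hold 1 core within 50 bases of the start. Psmd9, whose window is not shown, also holds 1 core within 50 bases of the start, and its log2 fold change was -0.56. A core near the start was therefore found on both sides of 0. The cores of Psmc6 and Psmd12, which also lay below 0, are farther from the start. Psma5 holds neither motif, and Psma1 holds 2 CCAAT matches, 126 and 98 bases before the start. The first of these is on the opposite strand and is printed as ATTGG.

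Genes that work with the proteasome were taken as lists by role, beside 13.4% of all genes that rose, 7.53% that fell and an all-gene median of 0.10. Of 17 tested shuttle and docking partners, 1 rose and 1 fell, with a median log2 fold change of -0.29. Pomp, a chaperone of core assembly, fell by 0.60 ± 0.18 on the log2 scale (8.77 ± 1.76 CPM in AngII hearts and 13.3 ± 1.57 CPM in sham hearts, SD, n = 6 each; adjusted p = 0.0343). Ddi2, the protease that activates Nfe2l1, rose by 0.65 ± 0.20 (6.65 ± 1.68 CPM in AngII hearts and 4.29 ± 0.94 CPM in sham hearts; adjusted p = 0.0377), and Txnl1, a redox protein bound to the regulatory particle, missed the threshold at -0.45 (adjusted p = 0.0535). Of 17 ubiquitin and unfoldase genes, 1 rose and 3 fell, with a median of -0.12. The ubiquitin-conjugating enzyme genes Ube2n, Ube2d1 and Ube2k fell (-0.74, -0.66 and -0.54), and Faf2, an adaptor of the unfoldase p97, rose (0.98).

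Of 18 tested transcription factors of proteasome genes and their processing enzymes, 4 rose and 4 fell. Syvn1, the ligase of the endoplasmic reticulum that keeps Nfe2l1 low, rose by 1.64 ± 0.34, and so did Mafg (1.41), Nfyc (1.15) and Ddi2. Maff (-1.37 ± 0.23), Mafk (-1.03), Nfyb (-0.90) and Btrc (-0.75) fell. The Maf genes encode small partners of Nfe2l1 and Nfe2l2, and Nfyb and Nfyc subunits of the CCAAT-binding NF-Y. Nfe2l1 itself averaged 17.98 ± 11.2 CPM in AngII hearts and 32.8 ± 11.1 CPM in sham hearts and missed the threshold at -0.99 ± 0.34 (adjusted p = 0.0572), and Nfe2l2 stood at 0.25 (adjusted p = 0.295). Of 16 interferon regulators and peptide transport genes, 1 rose and 1 fell. Tap2, a peptide transporter gene beside Psmb8 and Psmb9, rose by 1.56 ± 0.24 (adjusted p = 0.00197), while B2m, the light chain of the class I molecule, fell by 0.48 (adjusted p = 0.0368). Tapbp missed the threshold at 0.62 (adjusted p = 0.0526), while Irf1, a transcription factor that raises the immune subunits, stood at -0.03.

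Markers of other cells moved with the arms too, unevenly over the doses. The calls given are averaged over the doses, where 13.4% of all genes rose and 7.53% fell. In bulk tissue, fewer cells of a type and less RNA per cell cannot be told apart. Red cell markers, 4 of 4 called higher, summed to 909 to 2934 CPM in AngII libraries and 255 to 1549 CPM in sham libraries. Their median log2 fold change was -0.19 in vehicle, 1.68 with 5 mg and 2.34 with 50 mg. Fibroblast markers, 4 of 6 called lower, summed to 56.6 to 89.8 CPM in AngII libraries and 63.7 to 228.8 CPM in sham libraries. Their highest sums were in sham libraries 11 and 12 (228.8 and 219.8 CPM). In the same order of doses their medians were -0.38, -0.29 and -1.90. Macrophage markers, 2 of 6 called lower, summed to 16.6 to 52.9 CPM in AngII libraries and 18.1 to 83.2 CPM in sham libraries. Sham libraries 11 and 12 were again highest (83.2 and 66.6 CPM), and the medians by dose were -0.42, -0.02 and -1.49. Endothelial markers, 2 of 5 called higher, summed to 58.7 to 134.6 CPM in AngII libraries and 44.2 to 63.3 CPM in sham libraries, and smooth muscle markers, 3 of 5 called higher, to 97.4 to 308.6 CPM in AngII libraries and 72.0 to 156.2 CPM in sham libraries. Cardiomyocyte markers, 3 of 7 called higher and 1 lower, summed to 4366 to 7779 CPM in AngII libraries and 2907 to 5374 CPM in sham libraries. By dose the endothelial medians were 0.81, 0.96 and 0.98. Those of smooth muscle were 2.05, -0.04 and 0.70, and those of cardiomyocytes 0.02, 0.11 and 0.60. Lymphocyte markers stayed at or below 2.77 CPM in AngII libraries and 1.24 CPM in sham libraries, and lung markers at or below 8.81 CPM in AngII libraries and 1.89 CPM in sham libraries. The 1 lung marker tested, the airway gene Scgb1a1, was called higher (log2 fold change 4.98 ± 0.58, adjusted p = 0.000901). Testis markers, and likewise those of thymic epithelium, summed to at most 0.356 CPM in any AngII library and 0.290 CPM in any sham library. The part of these differences in the proteasome values was not tested.

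Across the 12 libraries, most members were lower where the share of counts outside mitochondrial and ribosomal RNA was higher. Spearman's rho between the 2 was lowest for Psme2b (-0.89), Psmb1 (-0.87) and Psmb7 (-0.82) and highest for Psmd3 (0.77), Psmb5 (0.66), Psmb6 (0.57) and Psme4 (0.56). The libraries share the arm contrast and the scaling, so these values are a description only. Across the 48 tested members, the log2 fold change had a Spearman's rho of 0.34 with the GC content of the gene, -0.13 with transcript length and 0.24 with mean level, again as a description over genes that are not independent. After removal of a GC trend per library, 15 members were called, 1 higher and 14 lower, while over all genes 1690 were higher and 1736 lower, against 2241 and 1260 without that step.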

How the data were processed

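Libraries were prepared with the TruSeq RNA kit from total heart RNA and sequenced as paired ends, per the labels' protocols. HISAT2 2.2.1, StringTie 2.1.3 and GRCm38.p6 are named in the submitters' processing notes; neither the counting program nor its handling of strand or of multiply matching reads is stated there. The authors deposited raw counts for 27504 genes and, per the file headers, TPM values for 14271 genes, which list 48 of the 50 members.

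Symbols, classes and positions came from GENCODE M21. Counts were filtered with filterByExpr (16723 genes), scaled by TMM and fitted in edgeR 4.0.16 (R 4.3.3) with 1 mean per group over all 12 libraries (6 residual degrees of freedom). Contrasts used the quasi-likelihood F-test, 2-sided, adjusted by Benjamini-Hochberg over all genes with a threshold of 0.05; standard errors are the log2 fold change over the root of F. Alternatives were DESeq2 1.42.0 (size factors, Wald test), other filters, limma 3.58.1 on log2(TPM + 1) and log2(TPM + 0.1), a covariate, a GC correction, pseudogenes added and libraries left out. The fit was tested on simulated data. The members and lists were chosen with earlier results of these data known. Members named in full are the cutting subunits, activators, called genes, the 4 nearest the threshold and those that are tissue-restricted or no subunit; other contrasts and each partner list give the 3 smallest p, with Nfe2l1, Nfe2l2, Pomp and Ddi2. Other genes named were chosen after their values were seen. Shared sequence was counted in words of 31 bases (50 or more shared). Library pairs differed by far more than sampling noise (chi-square per degree of freedom of 52.8 or more). Each library was counted as 1 sample, although that difference does not show that the libraries came from separate animals.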

Additional observations from a re-analysis of the deposited data

Results flagged for a closer look

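A set of 6 libraries of an arm was looked at for a library apart from the others in each of the 48 tested members, which gives 96 sets. In 4 of them the gap of the farthest library was above Dixon's critical value of 0.625 for 6 values, and chance flags about 1 set in 20. Psmc2, an ATPase gene of the regulatory particle, was highest in AngII library 4 at 14.5 CPM, with 8.97 to 10.9 CPM in the other AngII libraries. Psmb5 was highest in sham library 7 at 8.27 CPM, with 6.36 to 6.91 CPM in the other sham libraries. Psmf1 was highest in sham library 9 at 4.21 CPM, with 2.67 to 3.22 CPM in the others. Psmb3 was lowest in sham library 12 at 10.04 CPM, with 12.8 to 14.1 CPM in the others. Library 12 is the one with 11.1% of its counts on ribosomal RNA loci. The causes were not tested. No member passed the interaction tests of gastrodin and arm, whose standard errors are wide with 2 libraries a group; the 2 gastrodin doses were not compared with each other.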

How the results depend on the processing

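For AngII against sham averaged over the doses, 9 members were called. The count was 21 with DESeq2's Wald test (2 higher, 19 lower), 14 with at least 1 CPM in 6 libraries and 15 with the GC trend removed (1 higher, 14 lower). It was 0 on log2(TPM + 1), 1 on log2(TPM + 0.1) (Psme4, higher) and 0 with the share of counts as covariate. Leaving out 1 library each gave 2 to 23. Other settings with all 12 libraries gave 8 or 9. In vehicle the count of 0 became 1 with DESeq2. With 50 mg it became 2 with DESeq2, 1 with no filter and 2 with only the compared groups. Of all genes at 50 mg, 6.2% were higher and 2.76% lower with no filter, and 8.54% and 4% with only the compared groups. Both counts also moved in some fits without 1 library, where a group holds 1 library. In the other contrasts the count was 0 in all settings run. Over all genes the calls were 2241 higher and 1260 lower, 2816 and 1801 with DESeq2, 1227 and 26 on log2(TPM + 1), 2380 and 36 on log2(TPM + 0.1), 1690 and 1736 with the GC trend removed and 398 and 74 with the covariate. With at least 1 CPM in 6 libraries, 20% of all genes were higher and 14% lower, against 13.4% and 7.53% with the filter used above. The members' shares were then 4.35% and 26.1%. Leaving out libraries 4 and 12 leaves 1 library in each of their groups. The median log2 fold change was then -0.45 over the members and 0.18 over all genes. The cause of these shifts was not tested.

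Signs of 31 of 48 members turned on log2(TPM + 1) and of 29 on log2(TPM + 0.1), against 3 with the covariate and 3 with the GC trend removed. Among named members the values on those TPM scales, in that order, were 0.093 and 0.096 for Psmc1, 0.29 and 0.30 for Psme1, 0.32 and 0.36 for Psme2, 0.17 and 0.22 for Psme2b, 0.15 and 0.16 for Psmb8, 0.13 and 0.15 for Psmb9, 0.15 and 0.16 for Psmb10, 0.0033 and 0.0044 for Psmb7 and 0.039 and 0.056 for Psmd11. On log2(TPM + 1) alone they were 0.0015 for Psmb1 and 0.0016 for Psma2. With the covariate Psme2b stood at 0.024.

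No paired analysis was possible because the numbers 1 to 12 are not shared between groups. With 2 libraries a group, small changes at a single dose were not detectable. The standard error there was, for example, 0.29 for Psmd11 with 5 mg and 0.33 for Psma5 with 50 mg. The common biological coefficient of variation over all genes tested was 0.476. The members rest on 399 to 23605 counts each over 12 libraries, so the thinnest, Psmc3ip, is the least precise. Removing a library also loosens the filter, so that up to 18239 genes were tested.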
